A study of Mus musculus with 18 samples.

Results

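Acta2, Actg2, Myh11, Myl9, Mylk, Tagln, Cnn1, Tpm2, Smtn and Lmod1 encode the contractile machinery of smooth muscle cells. The genes were taken by symbol from the count tables of 2 mouse aorta RNA-seq experiments, and are 10 of the 55453 genes listed in both tables. All 10 passed the filter on low counts in both experiments. In each experiment wild-type mice were compared with mice homozygous for an edited CArG box in the promoter of Tspan2, which encodes a tetraspanin membrane protein of smooth muscle. In the HDR experiment, Cas9 protein, a guide RNA and a single-stranded donor oligonucleotide had replaced 3 adjacent bases of the box by homology-directed repair, and 5 Tspan2 sg/sg aortae were compared with 5 WT aortae (12 weeks of age, 3 females and 2 males per genotype, labelled C57BL/6). In the PE2 experiment, a prime editor, which nicks the DNA and copies the edit from an extended guide RNA by reverse transcription, had replaced 1 base, and 4 Tspan2 peg/peg aortae, all female, were compared with 4 WT aortae, 3 female and 1 male (8 weeks of age, labelled FVB/N/B6(Cg)-Tyrc-2J/J). Both alleles are carried in the germline and so in every cell type, and the lines descend from edited founders bred to C57BL/6J whose heterozygous offspring were intercrossed. Each library came from a single aorta cleaned of the fat around it. The p-values therefore measure the spread between single animals of a genotype.

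Vascular smooth muscle contracts when calcium and calmodulin activate myosin light chain kinase, which phosphorylates the regulatory light chain of myosin so that myosin heads can pull on actin filaments. The genes of this machinery are classical targets of serum response factor (SRF), a DNA-binding protein that recognises the CArG box, CC followed by 6 bases of A or T and then GG. The cofactor myocardin binds SRF and raises their transcription in smooth muscle. Tspan2 is a further SRF target in these cells, so the comparison asks whether the 10 contractile genes moved along with Tspan2 when its own box was changed.

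The edited box is shown first, because it is the only designed difference between the genotypes. Each line below reads 5′ to 3′ with the 10 bases of the box in capitals, taken from the study's table of oligonucleotides. Counted from 1 at the first base of the box, the HDR allele carries C1G, C2T and T3C, and the PE2 allele carries C1G alone.
Tspan2 WT: ccagttcttgCCTATTAAGGtaacagtcct
Tspan2 sg/sg: ccagttcttgGTCATTAAGGtaacagtcct
Tspan2 peg/peg: ccagttcttgGCTATTAAGGtaacagtcct
Boxes of the same form near the members were sought in the RefSeq promoter windows (GRCm38.p6), which run from 250 bases before to 50 bases after each gene's start. The table held a window for 7 of the 10 members. A box of the form given above, which is the same form on both strands, was found in 535 of all 32851 windows (1.63%) and in 1 member, Myl9, at chr2:156775293-156775322 with flanks, its first base 161 bases before the start. With 1 substitution allowed, 6936 windows (21.1%) held a box, and so did the windows of 3 members, Myl9, Acta2 and Lmod1. Acta2 holds a pair of boxes of this second kind, 84 and 34 bases before the start, and the more distant one is printed from chr19:34255438-34255467 on the minus strand.
Myl9: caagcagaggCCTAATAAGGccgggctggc
Acta2: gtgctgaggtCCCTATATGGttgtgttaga
A match is a description of the letters and not a binding site, and the windows are too short to hold boxes that lie further from a start or in an intron.

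Of the 18 libraries, 2 stood apart from the others of their experiment, WT 3 among the HDR and peg/peg 3 among the PE2 libraries. In HDR WT 3, 50 genes (0.304% of those tested) were over 3 times the highest other library of the same experiment in CPM, the count scaled to a common library total, and in peg/peg 3 so were 619 genes (3.77%). Of these, 21 genes in HDR WT 3 were at 20 CPM or more, and 20 of the 21 were likewise among those of peg/peg 3. The shared genes were 95.2% of the HDR list and 6.51% of the PE2 list past that minimum, and they included Actg2, Acta1 (skeletal muscle actin), Des and Synm (the intermediate filament proteins desmin and synemin), Krt5 and Krt15 (keratins of stratified epithelium) and Tnnt2 (cardiac troponin T). Mylk was past that fold in peg/peg 3 alone. Desmin was at 945 CPM in HDR WT 3 against 44.5 to 111 in the other 9 libraries, and at 5570.4 CPM in peg/peg 3 against 92.0 to 111 in the other 7. In peg/peg 3, 212 genes were also lower than the lowest other library by the same factor, as against 0 in HDR WT 3. Itga8, an integrin subunit abundant in aortic smooth muscle, was at 50.8 CPM in peg/peg 3 against 2427 to 4027 elsewhere in that experiment, whereas HDR WT 3 held 3408 CPM within the 3125 to 6694 of its own. The median correlation of peg/peg 3 with the other libraries was 0.901, as against 0.977 to 0.984 for the others. HDR WT 3, at 0.978, lay within its experiment's range of 0.969 to 0.984. The counts of genes past a fold were made for these 2 libraries alone, so those of the other libraries are not known. Actg2, itself a member, is among the genes that mark both out. Hoxa13 and Hoxd13, homeobox genes of the posterior body, and Pitx1 were also read, with the uroplakin genes of the urinary tract lining, all chosen after their values were seen. Hoxa13 was at 55.7 CPM in peg/peg 3 against at most 0.331 CPM in the other PE2 libraries, Hoxd13 at 19.6 against at most 0.044 CPM, and Pitx1 at 96.9 against at most 0.309 CPM. In HDR WT 3 they were at 9.36, 6.66 and 5.25 CPM, against at most 1.07, 0.057 and 0.283 CPM in the other HDR libraries. The uroplakin genes Upk1a, Upk1b and Upk3a were at 229, 207 and 112 CPM in peg/peg 3 against at most 13.7, 9.05 and 6.91 CPM, whereas Upk1b in HDR WT 3, at 20.1 CPM, lay within the range of its experiment (up to 30.5 CPM). Both libraries are labelled aorta, and whether they hold aorta alone, and what gave these profiles, was not tested. Values of the members in these libraries, Actg2 and Mylk above all, carry the same uncertainty, and the fold changes of the members below are given with and without the library concerned.

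Tspan2 itself followed the genotype labels in every library. It ranged from 112 to 265 CPM in HDR WT and from 15.95 to 36.6 CPM in sg/sg (log2 fold change -3.07, edgeR quasi-likelihood test with Benjamini-Hochberg adjustment, adjusted p = 0.00226, and -3.07 without WT 3), and from 186 to 284 CPM in PE2 WT and 11.9 to 25.5 CPM in peg/peg (-3.45, adjusted p = 0.0292, and -3.28 without peg/peg 3). The PE2 call was lost in 7 of 8 fits that each left out 1 library, all but the one without peg/peg 3, and with sex as a covariate, in female libraries alone or with the replicate block (edgeR adjusted p up to 0.295), while the log2 fold change stayed between -3.60 and -3.28 over these 11 fits. No other gene passed an adjusted p of 0.05 in the main edgeR fit of either experiment, with all libraries and the filter on low counts. In other edgeR fits, Gm3608 passed without PE2 WT 3 and Gm6682 without peg/peg 3. In HDR, Atp2a1, Myh4 and Slc2a5 passed without a count filter beyond 1 count. Library totals ranged from 17290992 to 24880385 counts over the HDR libraries and from 38820265 to 44895615 over the PE2 libraries. The 10 contractile genes took 2.01% to 3.94% and 3.31% to 8.51% of them, the last in peg/peg 3. The lowest count behind any value of a member was 1656, for Actg2 in sg/sg 4.

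In the HDR aortae, none of the 10 contractile genes passed the test between sg/sg and WT. Of the 10, 7 had a log2 fold change above 0 and 3 below 0, with a median of 0.10, beside 50.9% above 0 and a median of 0.003 among all 16423 genes tested. No member passed an adjusted p of 0.05 (background 0.00609%) and none reached an unadjusted p of 0.05 (background 1.98%) in edgeR. DESeq2 and limma-voom likewise passed 0 members, and 0 at an unadjusted p of 0.05, although DESeq2 withheld a p for Actg2. Over all genes DESeq2 passed 4 of 42879 and limma-voom 1 of 16423, and 684 and 263 reached an unadjusted p of 0.05. The ranges of sg/sg and WT overlapped for each of the 10, where 0.122% of all genes lay wholly higher and 0.195% wholly lower in sg/sg.

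Acta2 and Actg2 are the actins of the thin filament. Acta2 (GRCm38 chr19:34241090-34255590, minus strand) encodes smooth muscle alpha-actin, the most abundant actin of the arterial wall. In HDR WT libraries 2 to 6, in order, Acta2 was at 5937, 7578, 7615, 10914 and 7755 CPM, and in sg/sg libraries 2 to 6 at 8333, 7374, 5029.9, 9194 and 15276 CPM. The sg/sg animals held both the lowest and the highest value, and the means were 7959.7 ± 1812 in WT and 9041 ± 3817 in sg/sg (SD, n = 5 each). The log2 fold change was 0.18 (SE 0.28), with a 95% interval of 0.746-fold to 1.73-fold, and 0.16 without WT 3. It was -0.083 without sg/sg 6, so the sign rested on that library. Actg2 (chr6:83512905-83536265, minus strand) encodes smooth muscle gamma-actin, which is the main actin of visceral rather than vascular muscle. Actg2 was at 88.1, 1109, 111, 95.6 and 90.2 CPM in WT, and at 139.8, 119, 93.7, 92.1 and 192 CPM in sg/sg. The value of 1109 belonged to WT 3, and the other 4 WT libraries lay within 88.1 to 111. The log2 fold change of Actg2 was therefore -1.23 (SE 0.71, edgeR unadjusted p = 0.111) with WT 3 and 0.40 (SE 0.20, unadjusted p = 0.0754) without it, a change of sign. Without WT 3 the fold was 1.32, with an interval of 0.967-fold to 1.80-fold.

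The actin genes are close in sequence, so their shared bases were counted. The coding parts of Acta2 and Actg2 (Gencode M21 transcripts) were 83.82% identical, and their longest shared run was 29 bases, shorter than the read length of 75 in the methods. The stretch that holds this run is printed with its flanks, and capitals mark the 6 bases at which the genes differ.
Acta2: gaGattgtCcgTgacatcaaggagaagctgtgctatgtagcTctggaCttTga
Actg2: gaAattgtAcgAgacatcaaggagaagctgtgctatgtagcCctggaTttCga
No 75-base window of either transcript occurred in another gene's transcripts.

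The myosin motor and its kinase showed no difference beyond the spread. Myh11 (chr16:14194535-14291372, minus strand) encodes the smooth muscle myosin heavy chain. It was at 8535, 12510.0, 10381, 8797 and 7009.6 CPM in HDR WT and at 11848, 10261, 6847, 9602 and 12279 CPM in sg/sg, with a log2 fold change of 0.11 (SE 0.21), and 0.23 without WT 3. The 2 genotypes covered nearly one range. Myl9 (chr2:156775420-156781658, plus strand) encodes the regulatory light chain whose phosphorylation starts contraction. Myl9 was at 1737, 2561, 2503, 2724 and 2143 CPM in WT and at 2574, 2329.7, 1647, 2359 and 3650.3 CPM in sg/sg, with a log2 fold change of 0.11 (SE 0.21), and 0.14 without WT 3. The highest and the lowest Myl9 values were again both in sg/sg. Mylk (chr16:34745210-35002420, plus strand), the gene of the light chain kinase, was at 1629, 3109.5, 1752, 1461 and 1117 CPM in WT and at 2016, 1840.1, 1244, 1543 and 1990.2 CPM in sg/sg. Its highest value was in WT 3, and the log2 fold change moved from -0.07 (SE 0.26) to 0.21 (SE 0.19) without that library.

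The proteins that bind or tune the thin filament were likewise spread alike in both genotypes. Tagln (chr9:45929619-45936058, minus strand) encodes transgelin, an actin-bundling protein, and was at 2306, 3882, 3535, 3766 and 3034 CPM in WT and 3516, 3234, 2384, 3296 and 5096 CPM in sg/sg. Cnn1 (chr9:22099216-22109630, plus strand) encodes calponin, which binds actin and inhibits myosin ATPase, and was at 544, 1382, 665, 806 and 713 CPM in WT and 724, 698, 501, 681 and 1349 CPM in sg/sg. WT 3 and sg/sg 6 thus stood at nearly the same high Cnn1 level. Tpm2 (chr4:43514711-43523765, minus strand), the gene of beta-tropomyosin, was at 946, 1725, 1029.6, 1201 and 899.6 CPM in WT and 1472, 1166, 831, 1053 and 1647 CPM in sg/sg. Smtn (chr11:3517523-3540612, minus strand) encodes smoothelin, a cytoskeletal protein of contractile smooth muscle cells, and was at 1090.1, 987, 809, 653 and 419 CPM in WT and 1307, 1016, 656, 609 and 698 CPM in sg/sg. Lmod1 (chr1:135324807-135368065, plus strand) encodes leiomodin, an actin filament nucleator, and was at 489, 585, 554, 499 and 343 CPM in WT and 582, 543, 406, 501 and 685 CPM in sg/sg. The log2 fold changes of these 5 genes lay between -0.06 (Cnn1) and 0.14 (Lmod1), and between 0.15 (Tagln) and 0.27 (Tpm2) without WT 3. Apart from Actg2, the 95% intervals of the members reached down to 0.615-fold (Cnn1) and up to 1.73-fold (Acta2). That of Lmod1 was narrower, from 0.846-fold to 1.43-fold. For each gene, a change within its own interval was not excluded here.

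Without HDR WT 3, all 10 members had a log2 fold change above 0, from 0.14 (Myl9) to 0.40 (Actg2), beside 52.1% of all 16618 genes. The median of the members moved from 0.10 to 0.21. Leaving out sg/sg 6 instead put 3 members above 0 and 7 below, with a median of -0.07. No member passed the adjusted test (edgeR background 0.00602%) or an unadjusted p of 0.05 (edgeR background 1.99%) in edgeR, DESeq2 or limma-voom. Over all genes DESeq2 passed 6 of 42586 and limma-voom 1 of 16618, and 732 and 256 reached an unadjusted p of 0.05. The genotypes still overlapped for each member. The 10 genes vary together between animals, as shown further on, so 10 like signs are not 10 separate results.

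**Figure D1:**
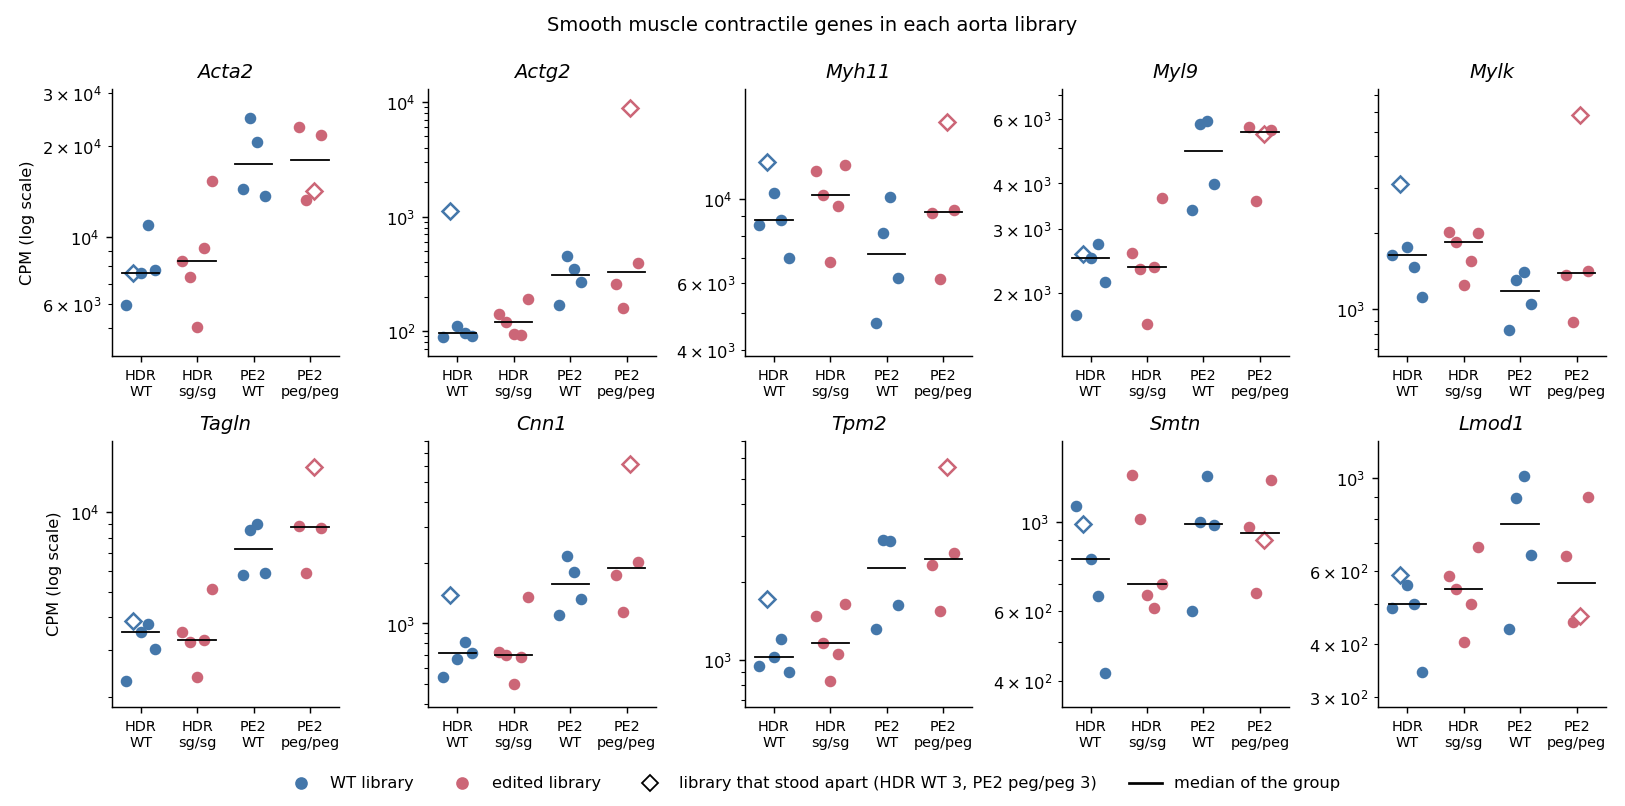
Level of each of the 10 contractile genes in every library, in CPM on a log axis, by genotype and experiment, with the libraries HDR WT 3 and PE2 peg/peg 3 marked apart. Actg2 is at 1109 CPM in HDR WT 3 and 8942 CPM in PE2 peg/peg 3, far above the other libraries, and for all 10 genes the genotypes overlap.

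In the PE2 aortae, again none of the 10 contractile genes passed the test between peg/peg and WT. Actg2 and Mylk were far higher in the peg/peg 3 library than in any other, and their log2 fold changes of 2.97 and 1.04 became -0.20 and 0.082 without it. Of the 10, 7 had a log2 fold change above 0 and 3 below 0, with a median of 0.42, beside 52.2% above 0 and a median of 0.01 among all 16401 genes. No member passed an adjusted p of 0.05 (background 0.00610%) or an unadjusted p of 0.05 (background 4.30%) in edgeR. DESeq2 and limma-voom also passed 0 members and 0 at an unadjusted p of 0.05, and DESeq2 again withheld a p for Actg2. Over all genes DESeq2 passed 33 of the 17481 with an adjusted p and limma-voom 1 of 16401. An unadjusted p of 0.05 was reached by 1037 of 28910 and 537 of 16401. The genotypes overlapped for each member, where 1.43% of all genes lay wholly higher and 1.10% wholly lower in peg/peg.

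Acta2, the alpha-actin, was at 14384, 24747, 20525 and 13608 CPM in PE2 WT libraries 1 to 4 and at 23084, 13269, 14229 and 21795 CPM in peg/peg libraries 1 to 4. The means of 18316 ± 5287 and 18094 ± 5060.2 CPM (SD, n = 4 each) were close, the log2 fold change was -0.018 (SE 0.41) with peg/peg 3 and 0.075 (SE 0.30) without it, and peg/peg 3 was not the highest library for this gene. Actg2, the gamma-actin, was at 169.7, 456, 349 and 268 CPM in WT and at 259, 161, 8942 and 396 CPM in peg/peg. Apart from the 8942 CPM of peg/peg 3, the Actg2 values of both genotypes covered the same range. Its log2 fold change was 2.97 (SE 1.31, edgeR unadjusted p = 0.0528, adjusted p = 0.861) with that library and -0.20 (SE 0.38) without it, where the interval ran from 0.470-fold to 1.61-fold. In peg/peg 3 Actg2 made up 11.4% of the summed CPM of the members, as against 0.476% to 0.815% in the other 7 PE2 libraries. In HDR WT 3 the share was 3.13%, as against 0.309% to 0.477% in the other 9.

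Myh11, the heavy chain, was at 4726, 8162, 10130.3 and 6217 CPM in PE2 WT and at 9162, 6179, 15924 and 9352 CPM in peg/peg, with a log2 fold change of 0.47 (SE 0.40) that was 0.16 (SE 0.29) without peg/peg 3. Myl9, the light chain, was at 3381, 5839, 5928 and 3975 CPM in WT and at 5705, 3588, 5454 and 5620.1 CPM in peg/peg. For Myl9 the peg/peg 3 library was unremarkable and peg/peg 2 was the low one, and the log2 fold change was 0.091 (SE 0.30), and 0.049 without peg/peg 3. Mylk, the kinase, was at 831, 1307, 1407 and 1052 CPM in WT and at 1360.1, 889, 5806 and 1419.8 CPM in peg/peg. The log2 fold change of Mylk was 1.04 (SE 0.59, edgeR unadjusted p = 0.112, adjusted p = 0.861), and 0.08 (SE 0.24) without peg/peg 3. The paralog Mylk4, named here after its values were seen, was at 0.242 CPM in peg/peg 3 against 262 to 449 CPM in the other 7.

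Among the thin filament proteins, Tagln was at 5753, 8544, 8959 and 5899.9 CPM in PE2 WT and 8841, 5882, 14713 and 8702 CPM in peg/peg, Cnn1 at 1106, 2151, 1802 and 1326 CPM against 1732, 1141, 6160.2 and 2012 CPM, and Tpm2 at 1317, 2887, 2877 and 1629 CPM against 2318, 1543, 5537 and 2592 CPM. The peg/peg 3 library held the highest value for all 3 genes. Their log2 fold changes of 0.39, 0.79 and 0.46, in that order, became 0.09, 0.02 and -0.03 without it. Smtn, at 597, 996, 1296 and 981 CPM in WT and 971, 663, 898 and 1268 CPM in peg/peg, and Lmod1, at 436, 897, 1012 and 654 CPM in WT and 652, 453, 468 and 903 CPM in peg/peg, did not share that peak. Their log2 fold changes were -0.026 (SE 0.28) for Smtn and -0.28 (SE 0.32) for Lmod1, and -0.0088 and -0.17 without peg/peg 3. In peg/peg 3, then, Myh11, Tagln, Cnn1, Mylk, Tpm2 and Actg2 were above all other PE2 libraries, while Acta2, Myl9, Smtn and Lmod1 lay within them.

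Without peg/peg 3, the log2 fold changes of the 10 genes ran from -0.20 (Actg2) to 0.16 (Myh11), 6 above 0 and 4 below, beside 46.8% above 0 among all 16668 genes, and the median was 0.03. No member passed the adjusted test (edgeR background 0.0120%) or an unadjusted p of 0.05 (edgeR background 4.10%) in edgeR, DESeq2 or limma-voom. Over all genes DESeq2 passed 100 of the 19608 with an adjusted p and limma-voom 2 of 16668. An unadjusted p of 0.05 was reached by 882 of 28573 and 676 of 16668. The 95% intervals then reached from 0.470-fold (Actg2) to 1.78-fold (Myh11). For each gene, a difference within its own interval was not excluded with 4 WT and 3 peg/peg libraries.

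**Figure D2:**
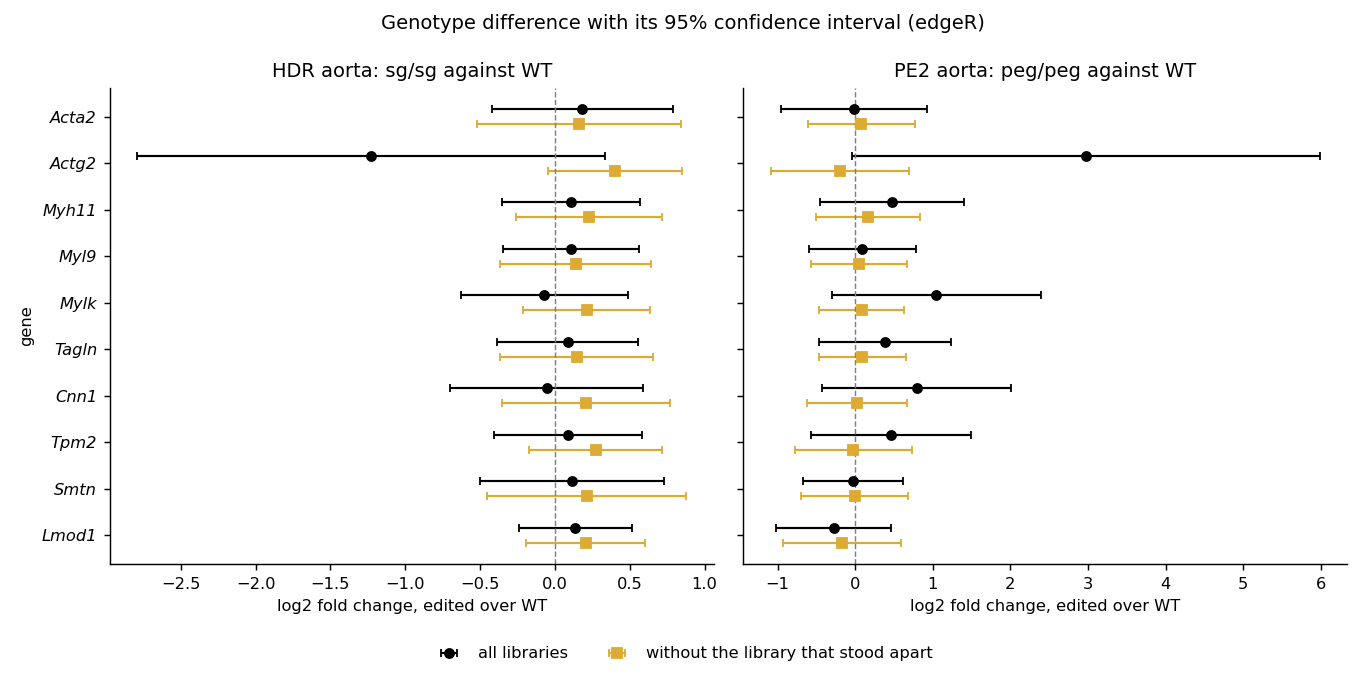
Log2 fold change of edited against WT for each of the 10 contractile genes with its 95% interval (edgeR), for the HDR and the PE2 experiment, with all libraries and without the library that stood apart. Each interval includes 0, and Actg2 moves from -1.23 to 0.40 in the HDR experiment and from 2.97 to -0.20 in the PE2 experiment when that library is left out.

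The difference between the 2 experiments in the effect of the edit was tested as an interaction in 1 fit over all 18 libraries. No member passed an adjusted p of 0.05 (background 0% of 18094 genes), and 1 member, Actg2, reached an unadjusted p of 0.05 (background 5.13%). Its log2 difference, the PE2 effect less the HDR effect, was 4.18 (SE 1.49, edgeR unadjusted p = 0.0120, adjusted p = 0.911). Without both libraries that stood apart it was -0.61 (SE 0.45, edgeR unadjusted p = 0.195). In that fit 0 members reached an unadjusted p of 0.05 (background 2.94%) and 0 passed the adjusted test (background 0% of 18303 genes). The differences of the 10 lay between -0.61 and -0.06, all below 0, beside 49.7% above 0 among all genes. These genes vary together between animals, so the like signs are not 10 separate results. The experiments also differ in age, labelled strain, sex and depth, which cannot be told apart from the allele here.

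Levels were compared between the 10 genes as CPM per kilobase of exon, leaving out the libraries that stood apart. The length of a gene was the union of the exons of all its transcripts. The actin, the light chain and transgelin led in both experiments. In the HDR aortae (n = 9 libraries) the mean level per kilobase was 3918 ± 1379 for Acta2, 2072 ± 508 for Myl9, 1686 ± 414 for Tagln and 1251 ± 252 for Myh11. The lower members followed at 391 ± 92.7 for Tpm2, 271 ± 89.8 for Cnn1, 184 ± 63.7 for Smtn, 144 ± 27.8 for Mylk, 129.5 ± 25.04 for Lmod1 and 72.9 ± 21.9 for Actg2. Neighbours in this order were ranked alike in all 9 libraries, except Cnn1 and Smtn and again Smtn and Mylk, each ranked so in 7 of 9. In the PE2 aortae (n = 7) the order was Acta2 at 8549 ± 2221, Myl9 at 4184 ± 993, Tagln at 3778 ± 787, Myh11 at 1014 ± 265, Tpm2 at 745 ± 227 and Cnn1 at 588 ± 154. The last 4 were Smtn at 221 ± 61.1, Actg2 at 189 ± 71.8, Lmod1 at 181 ± 57.7 and Mylk at 105 ± 22.4. Here Smtn and Actg2 were ranked so in 6 of 7 libraries and Actg2 and Lmod1 in 4 of 7, so these neighbours did not differ beyond their spread. With all libraries the mean of Actg2 per kilobase was 137 ± 203 over the HDR libraries (the ninth place) and 883 ± 1965 over the PE2 libraries (the sixth).

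**Figure D3:**
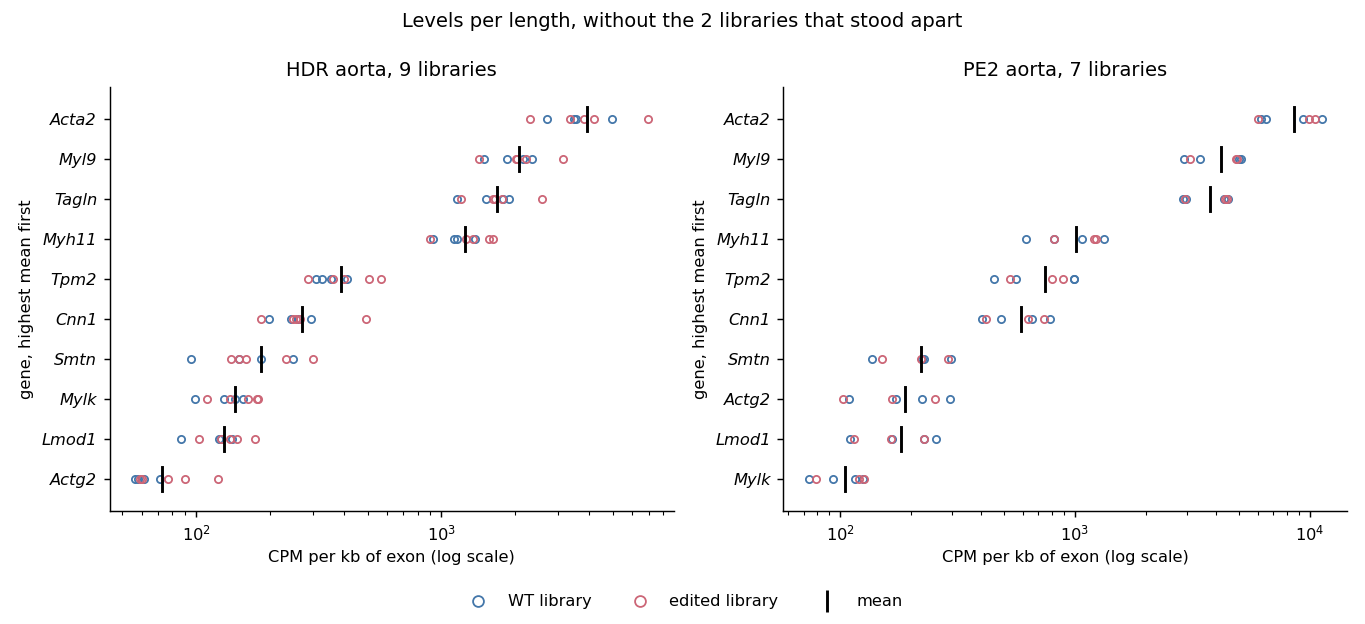
Level of each contractile gene per kilobase of exon (CPM per kilobase, log axis) in the 9 HDR and 7 PE2 libraries left without the libraries that stood apart, ordered by mean. Acta2, Myl9, Tagln and Myh11 lead in both experiments, and Actg2 is the lowest in the HDR experiment.

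Levels also differed between the wild types of the 2 experiments, in CPM that were scaled within each experiment apart and so share no common scaling. Without HDR WT 3, every PE2 WT library lay above every HDR WT library for Acta2 (2.27-fold on the ratio of mean CPM), Tagln (2.31-fold), Cnn1 (2.34-fold), Tpm2 (2.14-fold), Actg2 (3.23-fold) and Myl9 (2.10-fold). The ranges overlapped for Myh11 (0.842-fold), Smtn (1.303-fold), Mylk (0.771-fold) and Lmod1 (1.59-fold). With all HDR WT libraries, only Acta2, Tagln and Myl9 remained without overlap. The share of all genes that lay wholly apart between these wild types was not counted. Whether the separation is particular to the members is therefore not known. Age, labelled strain, the mix of sexes and depth differ between these animals, so no test was made.

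Within a genotype the 10 genes were uneven between animals and moved together. The coefficient of variation of a member had a median of 25.9% in HDR WT (18.7% without WT 3), 28.5% in sg/sg, 29.5% in PE2 WT and 39.7% in peg/peg (26.3% without peg/peg 3). With each gene's log2 CPM centred within its group, the median Pearson r over the pairs of members was 0.655 over 18 libraries and 0.821 over the 16 without both libraries that stood apart. Over those 16, r ran from 0.102 for Acta2 and Smtn to 0.989 for Tagln and Myl9, a description in which both genes of a pair come from the same libraries and share their depth. The gene outside the list with the most similar pattern to the mean of the members was Pnck (a calcium/calmodulin-dependent kinase; Pearson r 0.968 and Spearman correlation 0.959 over 18 libraries), followed by Plekha2 (r 0.953), Nkd1 (0.940), Src (0.936) and Fam129a (0.932), out of 8645 candidates. Over 16 libraries the leading genes were Ilk (integrin-linked kinase; r 0.959), Flna (the actin cross-linker filamin A; 0.955), Unc45a (a myosin chaperone; 0.953), Kcnmb1 (a subunit of the smooth muscle BK channel; 0.944) and Tmem38a (0.944), and no gene was on both lists. Likeness of pattern says nothing of shared control.

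**Figure D4:**
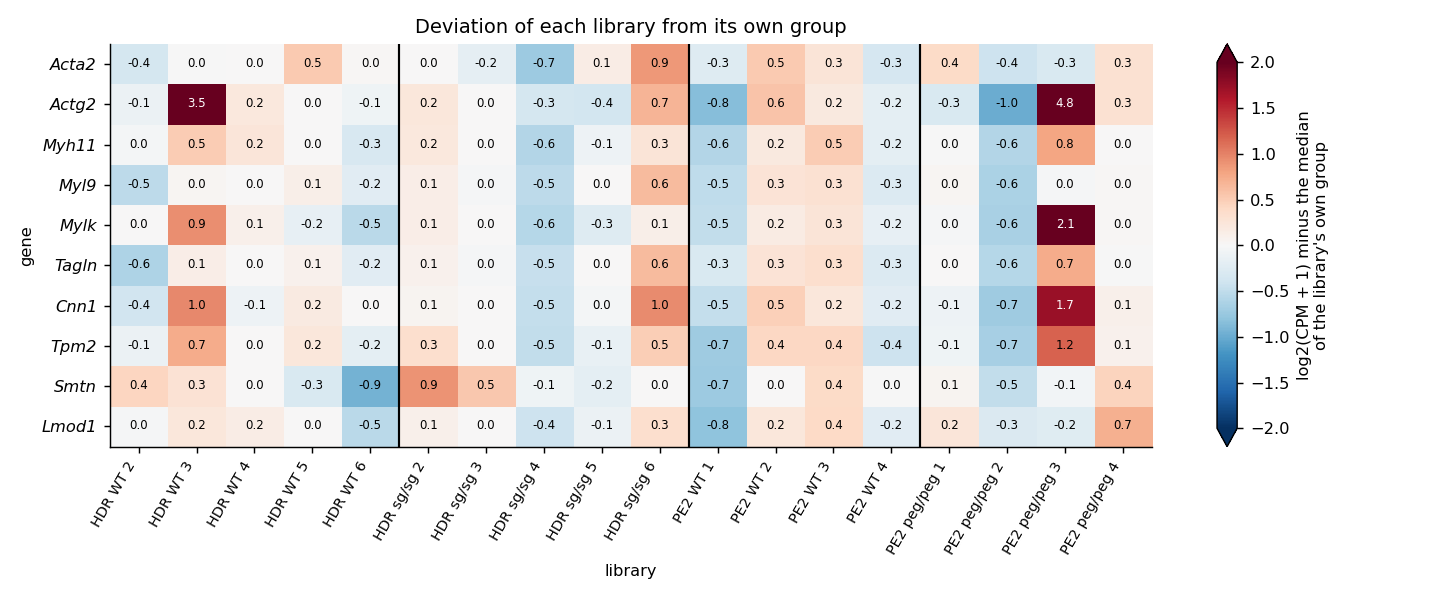
Log2 CPM of each contractile gene in each library less the median of that library's group. In 12 of the 18 libraries at least 8 of the 10 genes lie on one side of 0, and in HDR WT 3 and PE2 peg/peg 3 Actg2 lies far above the other members.

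Markers of fat differed between libraries alongside the members. In the PE2 experiment the summed CPM of the 10 members fell in 2 sets with a gap between them, at 32699.9 in WT 1, 35610.0 in WT 4 and 33767 in peg/peg 2, and between 54059 and 55986 in the other 4 libraries except peg/peg 3 (78131). The 3 libraries with low sums held the highest summed CPM of the 7 general fat markers, at 4852, 3794 and 3288, as against 1406 to 3170.0 in those 4. In the HDR experiment sg/sg 6 had the highest member sum (42862.5) and the lowest general fat sum (795), but sg/sg 4, with the lowest member sum (19639.7), had 2942, which WT 6 exceeded at 5652. In bulk tissue, fewer smooth muscle cells and less of these RNAs per cell cannot be told apart, and the part of fat in the members' spread was not tested.

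**Figure D5:**
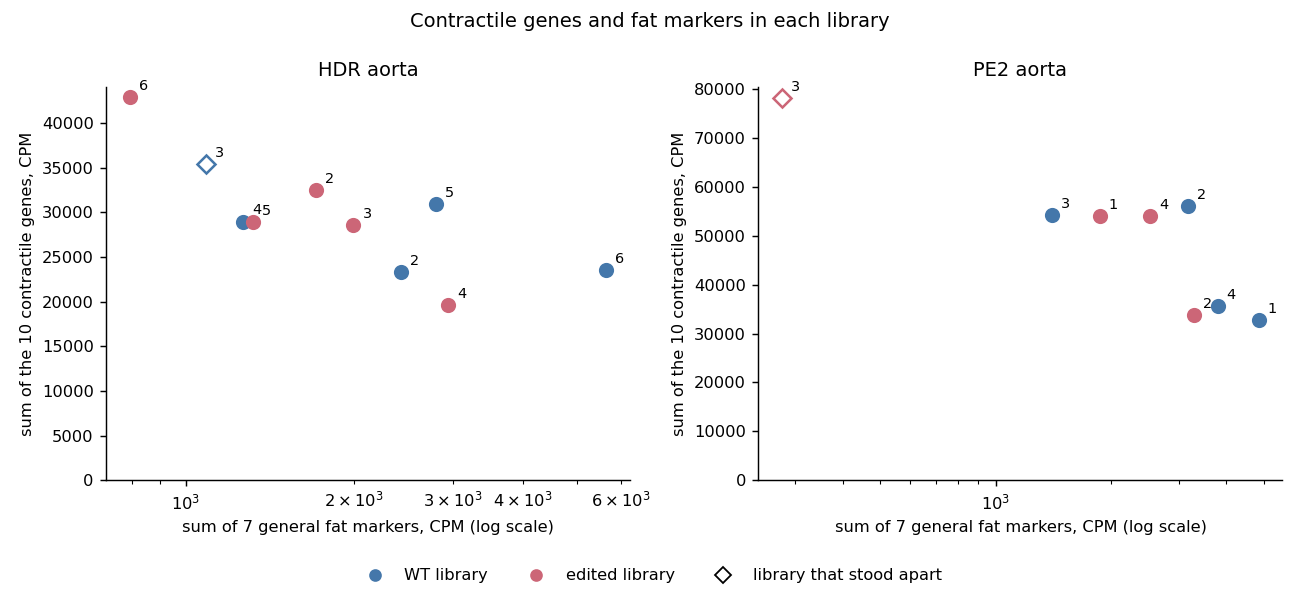
Summed CPM of the 10 contractile genes against the summed CPM of 7 general fat markers in each library of the 2 experiments. PE2 WT 1, WT 4 and peg/peg 2 have the lowest member sums of their experiment and general fat sums of 3288 to 4852, and PE2 peg/peg 3 lies alone at a member sum of 78131.

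Markers of other cells were read the same way. None of the markers of any list was at 0 in every library, and the 8 smooth muscle identity genes, some of which are members, were above 0 in all 18 libraries. In peg/peg 3 the summed level was 14.3 CPM for the 7 brown fat markers (494 to 2415 in the other PE2 libraries) and 278 CPM for the 7 general fat markers (1406 to 4852). The endothelial sum of 7 markers was 700.0 CPM in that library (1334 to 3001), the fibroblast sum of 7 was 8117 CPM (1775 to 4371), and the macrophage sum of 6 was 485 CPM (77.2 to 255). Both libraries that stood apart were high in the sum of the 12 skeletal muscle markers, at 163 CPM in HDR WT 3 (8.07 to 101) and 1214 CPM in peg/peg 3 (11.3 to 34.0). Acta1 alone, already among the genes that mark both out, gave 76.9 and 756 CPM of these sums, in that order. In peg/peg 3, 1 of the 12 markers was at 0. The sums of the 10 cardiac markers were also high in both libraries, at 283 CPM (119 to 204) and 1135 CPM (61.0 to 219). Between HDR genotypes, the 6 macrophage markers were each lower in sg/sg at an unadjusted p of 0.05 in edgeR and DESeq2 (4 of 6 in limma-voom). Over all genes, 325 of 16423 were past it in edgeR, 684 of 42879 in DESeq2 and 263 of 16423 in limma-voom. None of the 6 markers passed adjustment in any tool. Their sums were 176 to 440 CPM in WT without WT 3 and 132 to 234 CPM in sg/sg. The skeletal muscle sums without WT 3 were 8.07 to 11.2 CPM in WT and 13.2 to 101 CPM in sg/sg. With all libraries, 2 of these markers, Atp2a1 and Myh4, passed adjustment in DESeq2, where 4 of 42879 genes did. They did not pass in the main edgeR fit or in limma-voom, but passed in edgeR without a count filter beyond 1 count. Between PE2 genotypes, 4 of the 9 cardiac markers tested were higher in peg/peg at an unadjusted p of 0.05 in edgeR (background 4.30%). DESeq2 gave 3 of 10 and limma-voom 0 of 9. Without peg/peg 3, 6 of 9 were past it in edgeR (background 4.10%), with 7 above 0, 2 below and a median log2 fold change of 1.10. None of the cardiac markers passed adjustment in these fits. The part of these cells in the members' values was not tested.

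Other SRF and myocardin targets of smooth muscle did not pass the edgeR test in either experiment, and DESeq2 and limma-voom also passed 0 genes of this list and of the next 3. Of the 20 targets, 0 passed an adjusted p of 0.05 in each experiment, with a median log2 fold change of 0.01 in HDR (0.15 without WT 3) and 0.20 in PE2 (0.03 without peg/peg 3). At an unadjusted p of 0.05 in edgeR there were 0 in HDR (background 1.98%) and 2 in PE2 (background 4.30%), Des and Synm. Their log2 fold changes of 3.84 and 3.17 became 0.01 and 0.15 without peg/peg 3. Pgm5 (1.48 and 0.20) and Pdlim3 (0.98 and 0.036), which encode proteins of adhesion plaques and Z-discs, were likewise nearer 0 without it. At an unadjusted p of 0.05, DESeq2 and limma-voom each gave Rock2 and Myocd alone over the 4 lists in PE2, and 0 genes in HDR.

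Of 14 genes of the light chain kinase and phosphatase pathway, 0 passed adjustment in either experiment. At an unadjusted p of 0.05 in edgeR there were 0 in HDR (background 1.98%) and 1 in PE2 (background 4.30%). That gene was Rock2, a kinase that inhibits the light chain phosphatase, at a log2 fold change of 0.38 (SE 0.14, edgeR unadjusted p = 0.0285) and 0.28 (SE 0.13) without peg/peg 3. Rock1, its paralog, was at 0.38 (SE 0.22) in HDR and 0.10 (SE 0.36) in PE2. Ppp1r12a, the targeting subunit of the phosphatase, and Calm2, a calmodulin, were at 0.62 and 0.63 in PE2, and at 0.10 and 0.03 without peg/peg 3.

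SRF and its cofactors were measured as 4 genes. None passed adjustment in either experiment, and in edgeR 1 reached an unadjusted p of 0.05 in PE2 (background 4.30%) and 0 in HDR (background 1.98%). Myocd, the myocardin gene, had a log2 fold change of 0.91 (SE 0.31, edgeR unadjusted p = 0.0195, adjusted p = 0.861) in PE2, and 0.62 (SE 0.26, unadjusted p = 0.0431) without peg/peg 3. In HDR the Myocd value was 0.31 (SE 0.26), and 0.41 (SE 0.27) without WT 3. Srf was at 0.38 (SE 0.18) in PE2 and 0.05 (SE 0.20) in HDR, while Mrtfa and Mrtfb, the related cofactor genes, did not reach an unadjusted p of 0.05.

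Paralogs of the members in other muscles and in non-muscle cells gave 0 genes past adjustment of the 20 tested in HDR and the 21 tested in PE2. Acta1, the skeletal actin, was the only one at an unadjusted p of 0.05 in edgeR in PE2 (background 4.30%). Its log2 fold change of 6.07 became -0.38 (edgeR unadjusted p = 0.557) without peg/peg 3. In that fit 1 of the 22 paralogs tested, another gene, reached an unadjusted p of 0.05 (background 4.10%). In HDR the Acta1 value went from -1.99 with WT 3 to 1.99 (SE 0.65, edgeR unadjusted p = 0.0107, adjusted p = 0.9999) without it. An unadjusted p of 0.05 was reached in edgeR by 0 of the 20 HDR paralogs with all libraries (background 1.98%). Without WT 3 it was reached by 1 of 21, Acta1 (background 1.99%). Actc1, the cardiac actin (2.58 in PE2, and -0.15 without peg/peg 3), Smtnl2 (0.48 and 0.39) and Myh14 (0.99 and 0.23) did not reach an unadjusted p of 0.05. Per kilobase, the non-muscle actin Actb stood at a mean of 1257 CPM in HDR and 1012 CPM in PE2, below Acta2, and Acta1 stood at 1.76 and 1.66 CPM, all without the libraries that stood apart.

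Overlap between annotated genes touches a few of these values. Of the 75-base windows of the Tagln transcript, 53.3% were also held, on either strand, by another gene's transcripts, chiefly Gm48529, which was at 1.78 to 4.19 CPM in the HDR libraries and 2.80 to 3.82 CPM in the PE2 libraries. For Smtn the share was 6.57%, with Gm11946, which was at 55.7 CPM in peg/peg 3 against 0.305 to 0.727 CPM in the other PE2 libraries and at 12.9 CPM in HDR WT 3. For Mylk it was 3.55%, and for the other 7 members 0%. The strand setting of the counting is not given in the sources used here, so reads from such partners cannot be told apart from those of Tagln, Smtn and Mylk.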

How the data were processed

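Single mouse aortae were sequenced after poly(A) selection. Per the methods and the submitters' processing notes, the authors trimmed reads with fastp, aligned them with STAR 2.7.0f to GRCm38 with Gencode M22 and counted them per gene with Subread 1.6.4 featureCounts. The deposited tables hold whole-number counts, not normalized. The strand setting is not given, and the labels and methods disagree on kit and read length. The HDR columns name a genotype with numbers 2 to 6, while the labels run from 1 to 5, so no column was matched to a sample and sex could not be used there.

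Counts were fitted in R 4.3.3 with edgeR 4.0.16 (TMM, filterByExpr, quasi-likelihood test, Benjamini-Hochberg adjustment over all genes tested, threshold 0.05), each experiment apart, plus an interaction over all 18 libraries. CPM used the TMM library sizes, and log2 values for correlations had 1 CPM added. Alternatives were DESeq2 1.42.0, limma-voom (limma 3.58.1), other filters and scalings, sex and replicate terms, and leaving out each library. DESeq2 p-values given as NA stayed NA. The fit was tested on simulated data. No 2 libraries agreed within sampling noise (lowest chi-square per degree of freedom 17.2). PE2 labels share replicate numbers, but same-numbered libraries did not deviate together (r -0.226 to -0.0226), so the samples were not paired.

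Named genes were the 10 members, Tspan2, of each other pathway or paralog list the 4 genes with the smallest unadjusted p, the 5 genes most correlated with the members, and of each marker list its summed level. The members and lists were chosen with earlier results of these data known. Promoter windows came from RefSeq, and positions, lengths and transcripts from Gencode M21, both GRCm38. Myh11, Tagln and Actg2 had no promoter window.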

Additional observations from a re-analysis of the deposited data

Results flagged for a closer look

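Among the 40 groups of 4 or 5 libraries (10 genes in 4 groups), 5 held a value whose gap to its nearest neighbour was large for the group's range by Dixon's test, which chance gives in about 1 of 20 groups. Actg2 was at 1109 CPM in HDR WT 3, where the next library held 111 CPM. Actg2 was at 8942 CPM in PE2 peg/peg 3, with the next at 396 CPM, and Mylk was at 5806 CPM in the same library, with the next at 1419.8 CPM. These 3 values belong to the 2 libraries that stood apart over many genes. Cnn1 was at 1349 CPM in HDR sg/sg 6, with the next at 724 CPM, in the library that also held the highest Acta2, Tagln and Myl9 values of its experiment. Myl9 was at 3588 CPM in PE2 peg/peg 2, below the next at 5454 CPM, in a library that was also the lowest of its group for Acta2, Myh11, Tagln, Cnn1, Tpm2, Mylk, Smtn, Lmod1 and Actg2.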

How the results depend on the processing

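No member passed the adjusted test under any alternative run. At an unadjusted p of 0.05 in edgeR, Actg2 was past it in both experiments without a count filter beyond 1 count. Over all genes, 2588 of 42968 in HDR and 1210 of 29509 in PE2 were past it in those fits. In PE2 Actg2 was also past it without peg/peg 1, 2 or 4, with Mylk as well without peg/peg 2. Over all genes, 690 of 16701, 758 of 16720 and 1555 of 16787 were past it there, in that order. The number of all genes called in the HDR experiment was 4 with DESeq2 and 4 without a count filter beyond 1 count, and 6 with DESeq2 without WT 3. In the PE2 experiment it was 33 with DESeq2, 0 with sex as a covariate, 0 in female libraries alone, and 100 with DESeq2 and 2 with limma-voom without peg/peg 3, the last fits being added after seeing the data. The cause was not tested. A fit with the replicate block called 0 genes and 0 members in the PE2 experiment, Tspan2 being lost at a log2 fold change of -3.50. The HDR columns are numbered 2 to 6 and the sample labels 1 to 5, so no column could be matched to a label's number and no such fit was made there. Leaving out each library in turn gave 0 to 2 genes in PE2 and 0 to 4 in the interaction.

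Signs of the small fold changes were not stable. Leaving out each library in turn, the log2 fold change in HDR ran from -0.083 to 0.34 for Acta2, -1.47 to 0.40 for Actg2, -0.33 to 0.21 for Cnn1, -0.061 to 0.23 for Myl9, -0.20 to 0.21 for Mylk, -0.086 to 0.26 for Smtn, -0.083 to 0.20 for Tagln and -0.032 to 0.27 for Tpm2. In PE2 it ran from -0.16 to 0.16 for Acta2, -0.20 to 3.36 for Actg2, -0.051 to 0.22 for Myl9, -0.21 to 0.14 for Smtn and -0.025 to 0.67 for Tpm2. In the interaction it ran from -0.37 to 0.048 for Acta2, -0.17 to 0.13 for Myl9, -0.35 to 0.047 for Smtn, -0.0028 to 0.48 for Tagln and -0.12 to 0.59 for Tpm2.

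Without HDR WT 3, DESeq2 and limma-voom gave 0.23 and 0.15 for Cnn1, 0.22 and 0.21 for Mylk and 0.42 and 0.36 for Actg2, all of the opposite sign to the fit with it. Without peg/peg 3 they gave 0.083 and 0.077 for Acta2, 0.00036 and 0.00035 for Smtn and -0.19 and -0.20 for Actg2, and DESeq2 gave -0.017 for Tpm2. Without both libraries the interaction was -0.064 for Myh11, -0.061 for Tagln, -0.20 for Cnn1, -0.13 for Mylk, -0.30 for Tpm2 and -0.61 for Actg2.

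Using each gene's longest transcript, 6 of 10 members kept their place in the PE2 order of levels. With 1 substitution allowed, 3 members held a CArG box in place of 1. A wider promoter window was not run. Female libraries alone left 3 WT against 4 peg/peg, and depth was not the limit for any member.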
